A study of Mus musculus with 9 samples.

Results

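The genes of glycolysis, pyruvate and lactate use and the citric acid cycle were read in individual metaphase II oocytes of the mouse, mature eggs at their natural arrest. The set was a named list of 42 genes, of which 39 had a row of their own among 19938 genes on Affymetrix Mouse Gene 1.0 ST arrays, which read each gene with probes along the whole transcript. Gpi1, Eno1 and Mpc2 had none and were not analysed here. Of the 39, 15 belonged to glucose transport and glycolysis, 13 to pyruvate and lactate use and 11 to the citric acid cycle.

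Each array held 1 oocyte of an ICR mouse, an outbred strain. The mice were 2 months old, unmated, and had been primed with PMSG (10 IU), which drives follicle growth, and given hCG (10 IU) after 46 hours to trigger ovulation. In 3 oocytes the crude lysate in NuGEN direct lysis buffer was amplified without a column step. In 3 others RNA was purified with the Arcturus PicoPure kit and in 3 with the Qiagen RNeasy Mini kit, and all 9 were amplified with NuGEN Ovation One-Direct chemistry. Direct lysis also differs from both kits in its buffer, so its comparison with purified RNA does not isolate the column. Per the labels, 1 to 3 cells came from each of 3 mice per condition, and which oocyte came from which mouse is not given. Cells of 1 preparation may therefore share a mouse, and differences between mice cannot be told apart from differences between preparations. The tests rest on the variation among these 9 cells, part of which may be technical.

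A mature mouse oocyte is known to take up little glucose of its own. Surrounding cumulus cells break down glucose and pass on pyruvate and lactate, and the oocyte's mitochondria oxidise pyruvate through pyruvate dehydrogenase and the citric acid cycle. Glycolysis turns glucose into pyruvate in the cytosol, lactate dehydrogenase interconverts pyruvate and lactate, and the pyruvate dehydrogenase complex feeds acetyl groups to the cycle.

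Values are the deposited log2 expression values. The background level of an array was the value that 95% of its 1231 odorant, vomeronasal and taste receptor genes did not exceed, and it lay between 7.19 and 7.48. It is a working limit, not a detection p-value. Probes differ between rows, so the level of one gene was not set against that of another. All 12 oocyte markers, among them Gdf9, Bmp15 and Zp3, lay above background on all 9 arrays. Of 19 cumulus and granulosa cell markers, 2 lay above it on all arrays (Foxl2 and Nr5a1) and 12 on none, Fshr, Amhr2 and Star included. RNeasy oocyte 3 stood apart: it had the highest background, and 5 of these 19 markers lay above it, with Tnfaip6 at 8.39, Inhba at 8.48 and Ptgs2 at 7.56. The summed linear signal of the 19 markers was 2263 to 2508 with direct lysis, 2110 to 2295 with PicoPure and 2199 to 3002 with RNeasy, where 3002 belonged to oocyte 3.

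Every listed citric acid cycle gene was read above background, and so was part of the glycolysis list. All 11 cycle genes lay above background on all 9 arrays, against 9 of 13 pyruvate and lactate genes and 9 of 15 glycolysis genes, that is 29 of 39 in all. Across all genes the share was 43.1%. The 9 glycolysis genes include Hk1 by its brightest row, which lists 0 of its RefSeq transcripts. The other Hk1 row, which lists 4, lay below background on every array. Among glycolysis genes, Slc2a3, Hk2 and Aldoc lay above background on no array, and Pfkl, Pfkfb2 and Pfkfb3 on 6 to 8. These are further forms of a transporter or enzyme, or regulators of phosphofructokinase. Slc2a1, Pfkm, Pfkp, Aldoa, Tpi1, Pgk1, Pgam1 and Pkm lay above background on all 9. The lists differ in how many forms of a step they hold, so the class counts do not compare whole pathways. Among pyruvate and lactate genes, Slc16a7 and Pdk4 lay above it on none, Pdk1 on 2 and Ldha on 8. The number of members above background per oocyte was 33 to 34 with direct lysis, 31 to 34 with PicoPure and 31 to 32 with RNeasy. Background was higher on 2 RNeasy arrays, and its part in these counts was not tested.

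**Figure D1:**
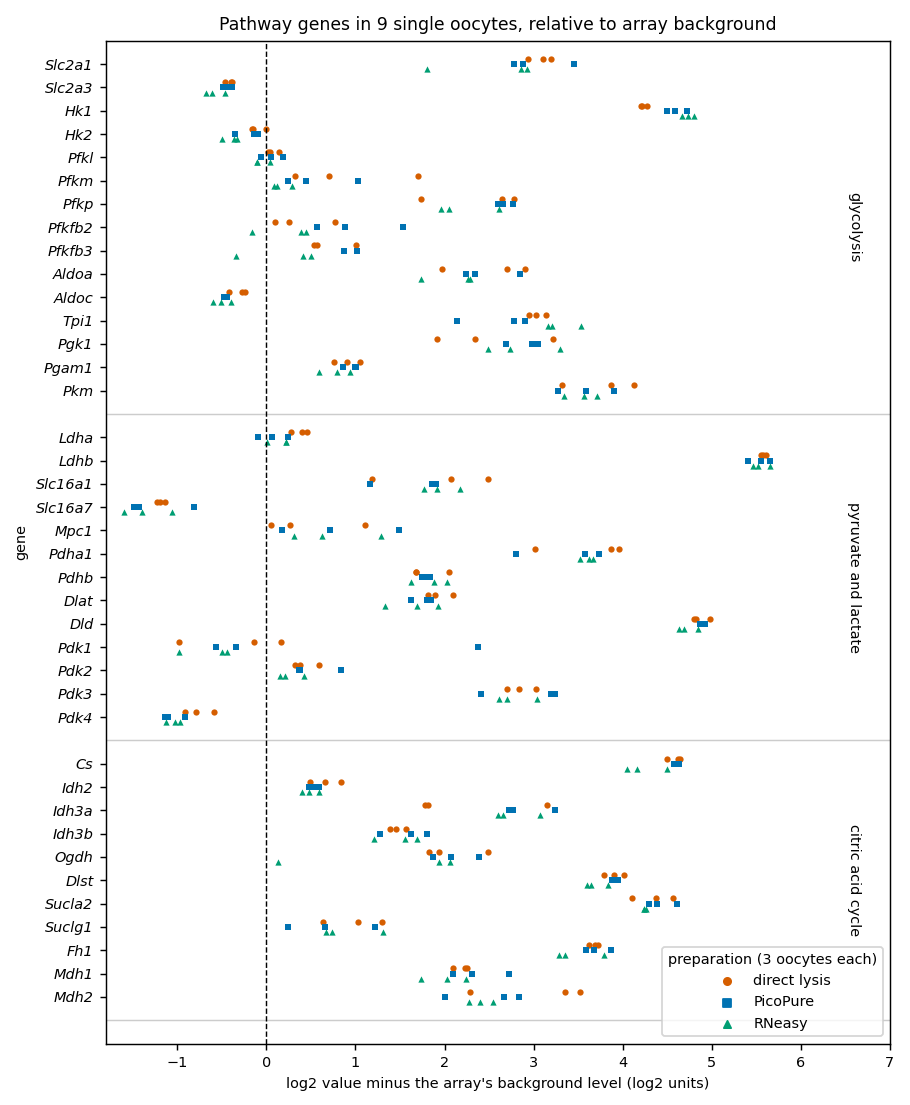
Each point is 1 oocyte, and the horizontal axis gives the log2 value minus that array's background level (dashed line at 0), with genes in pathway order and 3 oocytes for each of direct lysis, PicoPure and RNeasy. All points of the 11 citric acid cycle genes lie right of the line, while Slc2a3, Hk2, Aldoc, Slc16a7 and Pdk4 lie left of it.

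Glucose enters cells through facilitative transporters. Slc2a1, the widely expressed transporter GLUT1, had 10.34, 10.48 and 10.20 in direct lysis, 10.07, 10.72 and 10.03 with PicoPure and 10.33, 10.12 and 9.28 with RNeasy. The preparations overlapped, with RNeasy oocyte 3 the lowest of the 9. The difference between PicoPure and RNeasy was 0.36 with that oocyte and 0.05 without it, and neither passed (limma, adjusted p = 0.795 and 1). Slc2a3, the high-affinity transporter GLUT3, had 6.84, 6.89 and 6.80 in direct lysis, 6.80, 6.81 and 6.76 with PicoPure and 6.80 on each RNeasy array, all below background.

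Hexokinase, which traps glucose in the cell, was the step where the annotation mattered most. The gene's row with the highest mean, taken here by rule for Hk1, had 11.44, 11.50 and 11.53 in direct lysis, 11.69, 11.98 and 11.84 with PicoPure and 12.14, 12.07 and 12.14 with RNeasy. The 3 preparations did not overlap at all. Direct lysis lay 0.49 below purified RNA (difference -0.49 ± 0.07 SE, limma, adjusted p = 0.0283), which is 1.40-fold lower. It was the single member past the adjusted threshold of 0.05 in that comparison, where 0.667% of all genes were called lower.

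That row, however, listed 0 of the RefSeq transcripts of Hk1. It was assigned to the gene by 1 GenBank mRNA, and that mRNA stood also on 16 rows that list Rpl17, a gene of the large ribosomal subunit, beside Hk1. Those 16 rows had means of 11.08 to 12.29 and differences of -0.44 to -0.15 between direct lysis and purified RNA. In 15 of them each direct lysis array lay below each purified array, and 1 passed the threshold among all 35556 rows. Over the 9 arrays, which share the preparations, the Hk1 row correlated with them at r = 0.74 to 0.87 and with the other Hk1 row at r = -0.70.

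The other row annotated Hk1 listed 4 of its RefSeq transcripts. It had 6.91, 6.81 and 6.84 in direct lysis, 6.70, 6.59 and 6.75 with PicoPure and 6.68, 6.75 and 6.75 with RNeasy. It was below background on every array and differed by 0.15 between direct lysis and purified RNA (limma over rows with 1 symbol, adjusted p = 0.304). With 1 row per gene chosen by its RefSeq transcripts, no member was called (limma, 0 of 39, and 2 at an unadjusted p under 0.05). Whether the row used reads Hk1, Rpl17 or both was not tested, and the call is given as one of the annotated row.

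**Figure D2:**
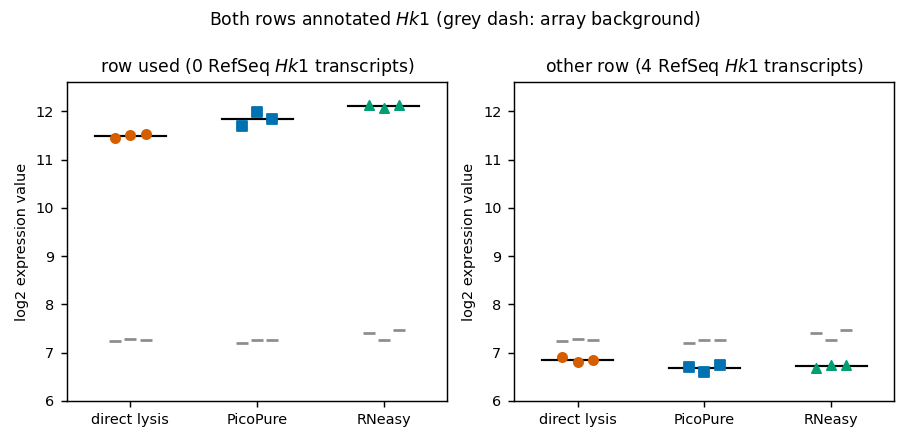
Points are the log2 values of 3 oocytes for each of direct lysis, PicoPure and RNeasy on both rows annotated Hk1, black bars are means and grey dashes the background level of each array. The row used, with 0 RefSeq Hk1 transcripts, falls into 3 separate groups between 11.44 and 12.14, and the row with 4 such transcripts lies at 6.59 to 6.91.

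The call of the row used also depended on which arrays entered the fit. Its adjusted p was 0.0570 to 0.0806 without any 1 of 8 arrays and 0.0439 without PicoPure oocyte 1, while its difference stayed between -0.52 and -0.45. Against RNeasy alone its difference was -0.63, and against PicoPure alone it was -0.34 and did not pass (limma, adjusted p = 0.146). Under a further quantile normalization it was -0.41 (limma, adjusted p = 0.0754). Hk2, the insulin-responsive hexokinase, ranged over all 9 arrays from 6.77 to 7.22, below background on each.

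Phosphofructokinase commits sugar to glycolysis, and its platelet form Pfkp was read above background on every array. Pfkp had 8.97, 10.07 and 9.90 in direct lysis, 9.85, 10.03 and 9.85 with PicoPure and 9.37, 9.88 and 9.53 with RNeasy. One direct lysis oocyte was low and the groups overlapped (difference direct lysis minus purified RNA -0.10, 95% interval -0.65 to 0.45). The muscle form Pfkm, also above background on all 9, ranged from 7.38 to 8.96, with direct lysis oocyte 3 the highest, and the liver form Pfkl from 7.16 to 7.51.

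The enzymes Pfkfb2 and Pfkfb3 make and remove the sugar bisphosphate that activates phosphofructokinase. Pfkfb3 had 8.23, 7.86 and 7.79 in direct lysis, 8.06, 8.28 and 8.12 with PicoPure and 7.82, 7.77 and 7.13 with RNeasy. Each PicoPure oocyte lay above each RNeasy oocyte, but the difference of 0.58 ± 0.20 SE did not pass (limma, unadjusted p = 0.0203, adjusted p = 0.530). It was 0.36 without RNeasy oocyte 3, which was below its own background. Pfkfb2 ranged from 7.10 to 8.72 and differed by 0.63 between PicoPure and RNeasy, with a 95% interval of -0.08 to 1.34.

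Among the later steps, triose phosphate isomerase differed most between the kits. Tpi1 had 10.18, 10.43 and 10.29 in direct lysis, 10.09, 10.04 and 9.39 with PicoPure and 10.94, 10.43 and 10.68 with RNeasy. Each PicoPure oocyte lay below each RNeasy oocyte and direct lysis lay between (difference PicoPure minus RNeasy -0.84 ± 0.21 SE, limma, unadjusted p = 0.00367, adjusted p = 0.348). The sign held without any 1 array, at -0.62 to -0.97 without 1 of the 6 purified arrays. The test did not pass in any of those fits.

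The remaining glycolytic genes overlapped between the preparations in both comparisons, apart from Aldoc between the kits. Aldoa, the aldolase of most tissues, ranged from 9.15 to 10.16, and Pkm, pyruvate kinase, from 10.54 to 11.39. The brain aldolase Aldoc had 6.99, 6.87 and 6.99 in direct lysis, 6.75, 6.82 and 6.78 with PicoPure and 6.90, 6.87 and 6.87 with RNeasy. These values lay below background, and the difference between direct lysis and purified RNA was 0.12 ± 0.05 SE (limma, unadjusted p = 0.0579, adjusted p = 0.366). Pgk1, phosphoglycerate kinase, ranged from 9.17 to 10.56 and Pgam1, phosphoglycerate mutase, from 8.0 to 8.3.

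Pgk1 and Pgam1 are known to have near-identical copies in the genome, and their levels are given as uncertain, since shared signal was not tested. They had 3 rows each, of which 2 were equal on all arrays to the decimals deposited. For Pkm, the row used listed 0 RefSeq transcripts and differed by 0.16 between direct lysis and purified RNA. Its other row listed 3 and differed by -0.06, neither past the threshold.

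Lactate dehydrogenase is a tetramer of A and B subunits, and in mouse oocytes it is known to consist mainly of the B subunit, encoded by Ldhb. Ldhb had 12.84 on each direct lysis array, 12.84, 12.67 and 12.81 with PicoPure and 12.87, 12.92 and 12.99 with RNeasy. Each RNeasy value lay above each PicoPure value, by a small step (difference PicoPure minus RNeasy -0.15 ± 0.07 SE, limma, unadjusted p = 0.0612, adjusted p = 0.646). Its second row gave -0.16. Between direct lysis and purified RNA the interval of the difference was -0.15 to 0.13.

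Ldha, which encodes the subunit typical of glycolytic tissue, stayed near background. It had 7.68, 7.69 and 7.54 in direct lysis, 7.25, 7.17 and 7.49 with PicoPure and 7.41, 7.49 and 7.70 with RNeasy. The groups overlapped and the difference between direct lysis and purified RNA was 0.22 ± 0.10 SE (limma, unadjusted p = 0.0558, adjusted p = 0.362).

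The upstream sequences of both subunit genes are shown because these subunits make up the same enzyme. They are the 250 bases before the start site in RefSeq (build GRCm38.p6), in lower case, 5′ to 3′ on the gene's strand, with each ACGTG on either strand in capitals. ACGTG is the core of the hypoxia response element and is contained in the E-box CACGTG. Ldhb lies on the minus strand at chr6:142507958-142508207. The first of 2 windows listed for Ldha lies on the plus strand at chr7:46845554-46845803.
Ldhb: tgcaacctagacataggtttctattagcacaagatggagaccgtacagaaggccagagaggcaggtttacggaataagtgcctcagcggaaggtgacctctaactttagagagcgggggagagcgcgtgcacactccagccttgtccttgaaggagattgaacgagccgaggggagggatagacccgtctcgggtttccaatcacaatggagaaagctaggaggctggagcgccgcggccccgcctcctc
Ldha: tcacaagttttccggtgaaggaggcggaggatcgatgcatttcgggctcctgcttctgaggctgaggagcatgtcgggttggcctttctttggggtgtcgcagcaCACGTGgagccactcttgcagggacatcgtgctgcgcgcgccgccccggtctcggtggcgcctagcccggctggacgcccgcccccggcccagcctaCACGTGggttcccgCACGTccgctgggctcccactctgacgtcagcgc

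The Ldha window held the letters in 3 stretches and the Ldhb window in none. Of the 36 members with a window, 14 (38.9%) held the motif in the first window listed, counted on both strands. They were 7 of 14 glycolysis genes, 5 of 12 pyruvate and lactate genes and 2 of 10 citric acid cycle genes. Among all 27025 genes of that table the share was 16.6%, and among its protein-coding genes 17.6%. Idh3a, Slc16a7 and Slc2a3 had no window. A match is a run of letters and was not measured as a binding site.

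Pyruvate and lactate cross the cell membrane through monocarboxylate transporters. Slc16a1, encoding MCT1, had 8.42, 9.36 and 9.75 in direct lysis, 9.05, 9.17 and 8.42 with PicoPure and 9.18, 9.44 and 9.39 with RNeasy. Each PicoPure oocyte lay below each RNeasy oocyte, while direct lysis spread over both (difference PicoPure minus RNeasy -0.45, 95% interval -1.23 to 0.32). Without 1 array in turn it was -0.60 to -0.22. Slc16a7, encoding the high-affinity transporter MCT2, had 6.09, 6.09 and 6.03 in direct lysis, 6.37, 5.83 and 5.77 with PicoPure and 6.01, 6.20 and 5.87 with RNeasy, below background throughout.

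The mitochondrial pyruvate carrier brings pyruvate into the matrix. Its subunit gene Mpc1 had 8.34, 7.34 and 7.53 in direct lysis, 8.68, 7.98 and 7.43 with PicoPure and 8.69, 7.58 and 8.10 with RNeasy. Each preparation held values above and below 8, and Mpc1 had the third largest SD within preparations among the members, at 0.57.

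The pyruvate dehydrogenase complex was read on every array. Pdha1, its E1 alpha subunit, had 10.24, 11.16 and 11.22 in direct lysis, 10.77, 11.00 and 10.06 with PicoPure and 11.03, 10.79 and 11.14 with RNeasy. One direct lysis and one PicoPure oocyte were low and the groups overlapped. Dld, the E3 subunit shared with other dehydrogenase complexes, ranged from 12.06 to 12.21. The E1 beta gene Pdhb ranged from 8.94 to 9.36 and the E2 gene Dlat from 8.81 to 9.36.

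Pyruvate dehydrogenase kinases switch the complex off by phosphorylation. Pdk3 had 10.26, 10.12 and 9.96 in direct lysis, 10.38, 10.50 and 9.66 with PicoPure and 10.45, 9.88 and 10.18 with RNeasy, above background in all 9. Pdk1 had 7.39, 6.30 and 7.12 in direct lysis, 9.57, 6.70 and 6.91 with PicoPure and 6.91, 6.82 and 6.49 with RNeasy. A single PicoPure oocyte was far above the rest, and Pdk1 had the largest SD within preparations, at 0.99. Its difference between PicoPure and RNeasy was 0.98 with that oocyte and 0.06 without it, and neither passed (limma, adjusted p = 0.777 and 1).

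Pdk4, the kinase induced by fasting in many tissues, was the second member with an unadjusted p under 0.05 between direct lysis and purified RNA. It had 6.64, 6.50 and 6.35 in direct lysis, 6.08, 6.35 and 6.11 with PicoPure and 6.44, 6.24 and 6.35 with RNeasy. All values were below background (difference 0.24 ± 0.09 SE, limma, unadjusted p = 0.0362, adjusted p = 0.316). Pdk2 ranged from 7.47 to 8.03.

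In the citric acid cycle, citrate synthase joins acetyl groups to oxaloacetate. Cs had 11.73, 11.91 and 11.91 in direct lysis, 11.81, 11.84 and 11.89 with PicoPure and 11.46, 11.43 and 11.97 with RNeasy. A pair of RNeasy oocytes was lower than the other 7, while the third was the highest of all.

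Isocitrate dehydrogenase catalyses an oxidative step of the cycle. Idh3a, the catalytic subunit of the NAD-dependent enzyme, had 9.01, 10.44 and 9.07 in direct lysis, 10.43, 10.03 and 9.98 with PicoPure and 10.48, 9.87 and 10.13 with RNeasy. A pair of direct lysis oocytes lay below every purified oocyte and the other among the highest (difference direct lysis minus purified RNA -0.65, 95% interval -1.39 to 0.10). It was -1.11 without direct lysis oocyte 2 (limma, adjusted p = 0.0571) and -0.40 and -0.43 without direct lysis oocyte 1 or 3. Idh3b, another subunit, ranged from 8.53 to 9.17 and the NADP-dependent Idh2 from 7.67 to 8.07.

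The oxoglutarate dehydrogenase complex follows. Ogdh, its E1 subunit, had 9.06, 9.23 and 9.75 in direct lysis, 9.58, 9.33 and 9.12 with PicoPure and 9.35, 9.33 and 7.61 with RNeasy. RNeasy oocyte 3, which also had the highest cumulus markers and background, was far below the others. The difference between PicoPure and RNeasy was 0.58 with it and 0.00 without it, and neither passed (limma, adjusted p = 0.790 and 1). Dlst, the E2 subunit, ranged from 11.02 to 11.30.

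The later cycle genes overlapped between the preparations in both comparisons. Sucla2 and Suclg1, subunits of succinate-CoA ligase, ranged from 11.39 to 11.86 and from 7.43 to 8.78. Fh1, fumarase, ranged from 10.70 to 11.06. The cytosolic malate dehydrogenase Mdh1 ranged from 9.14 to 9.99 and its mitochondrial counterpart Mdh2 from 9.26 to 10.78, with the highest Mdh2 values in 2 direct lysis oocytes.

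**Figure D3:**
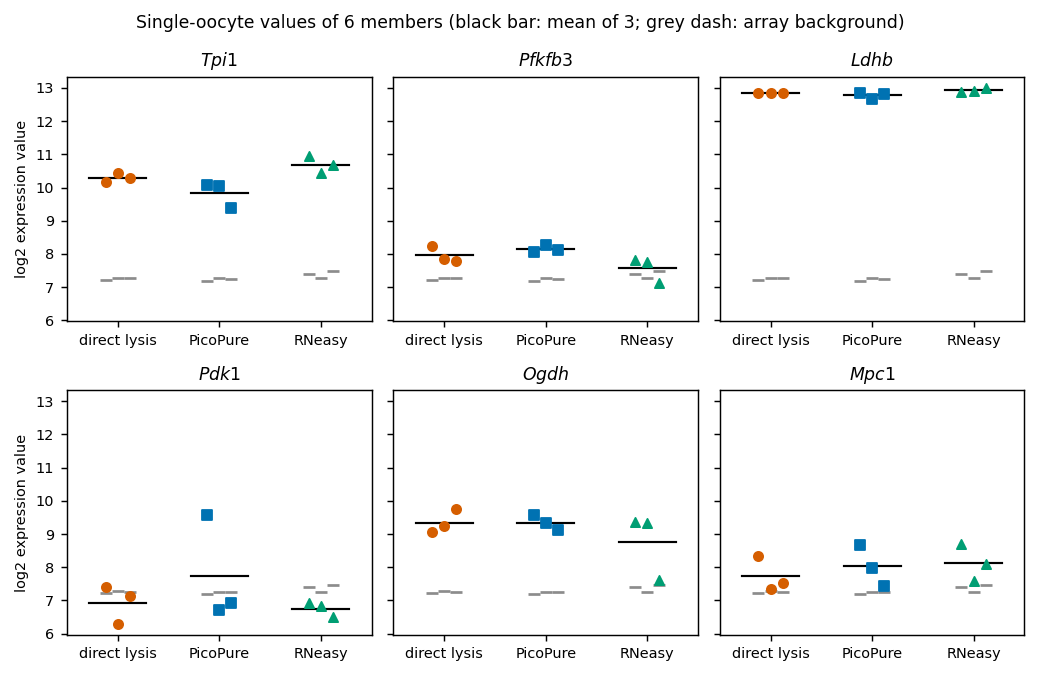
Points are log2 values of single oocytes for 6 members on a common axis, with 3 oocytes each for direct lysis, PicoPure and RNeasy, a black bar at each mean and grey dashes at the array background. Tpi1, Pfkfb3 and Ldhb separate PicoPure from RNeasy, and 1 oocyte stands apart for Pdk1 (9.57, PicoPure) and for Ogdh (7.61, RNeasy).

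Between direct lysis and purified RNA, 1 of 39 members was called lower and 0 higher, the annotated Hk1 row. In all, 1.01% of genes were called in either direction, 0.667% lower and 0.341% higher. At an unadjusted p under 0.05 there were 2 members, against 14.2% of all genes. The median difference was 0.05 for glycolysis genes, 0.01 for pyruvate and lactate genes and 0.05 for citric acid cycle genes, against 0.00 for all genes. Of 15 glycolysis genes 10 were positive, of 13 pyruvate and lactate genes 7 and of 11 cycle genes 7. Direct lysis arrays lay wholly below the purified arrays for 1 member, the Hk1 row, and wholly above for 0, against 3.72% and 4.31% of all genes, or 8.02% in either direction.

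Between PicoPure and RNeasy, no member was called (limma, 0 of 39), against 0.0602% of all genes. At an unadjusted p under 0.05 there were 3 members, Tpi1, the Hk1 row and Pfkfb3, against 7.98% of all genes. The median difference was 0.03 for glycolysis genes, -0.09 for pyruvate and lactate genes and 0.03 for citric acid cycle genes, against -0.03 for all genes. PicoPure lay wholly below RNeasy for 6 members (the Hk1 row, Aldoc, Tpi1, Ldhb, Slc16a1 and Idh2) and wholly above for 3 (Pfkfb3, Dld and Dlst), against 7.03% and 6.92% of all genes, or 13.9% in either direction. The moderated F over the 3 preparations called 1 member, again the Hk1 row (limma, adjusted p = 0.0468), against 0.637% of all genes. That call was lost in 14 of 18 alternatives, among them each fit without 1 array and the row with the most RefSeq transcripts.

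The intervals show what size of difference these arrays could miss. Between direct lysis and purified RNA, the 95% interval reached to each side by a distance that ran from 0.11 to 1.41 over the members, with a median of 0.34. For citric acid cycle genes it ran from 0.16 (Dlst) to 0.90 (Ogdh). On the deposited values, a change as large as a doubling of Dlst, Dld or Ldhb lies outside their intervals. Ldhb, at 12.67 to 12.99, lay toward the top of the scale, whose highest value was 13.90. Its 3 direct lysis arrays held the same value, an SD of 0. Equal values also occurred at low levels, as for Slc2a3 on the 3 RNeasy arrays at 6.80, below background. Whether a rise in Ldhb could be read in full at its level was not tested. The intervals of Pdk1, Ogdh, Mpc1, Pfkm, Mdh2, Idh3a and Pgk1 include a difference of 1 log2 unit, in at least 1 direction.

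**Figure D4:**
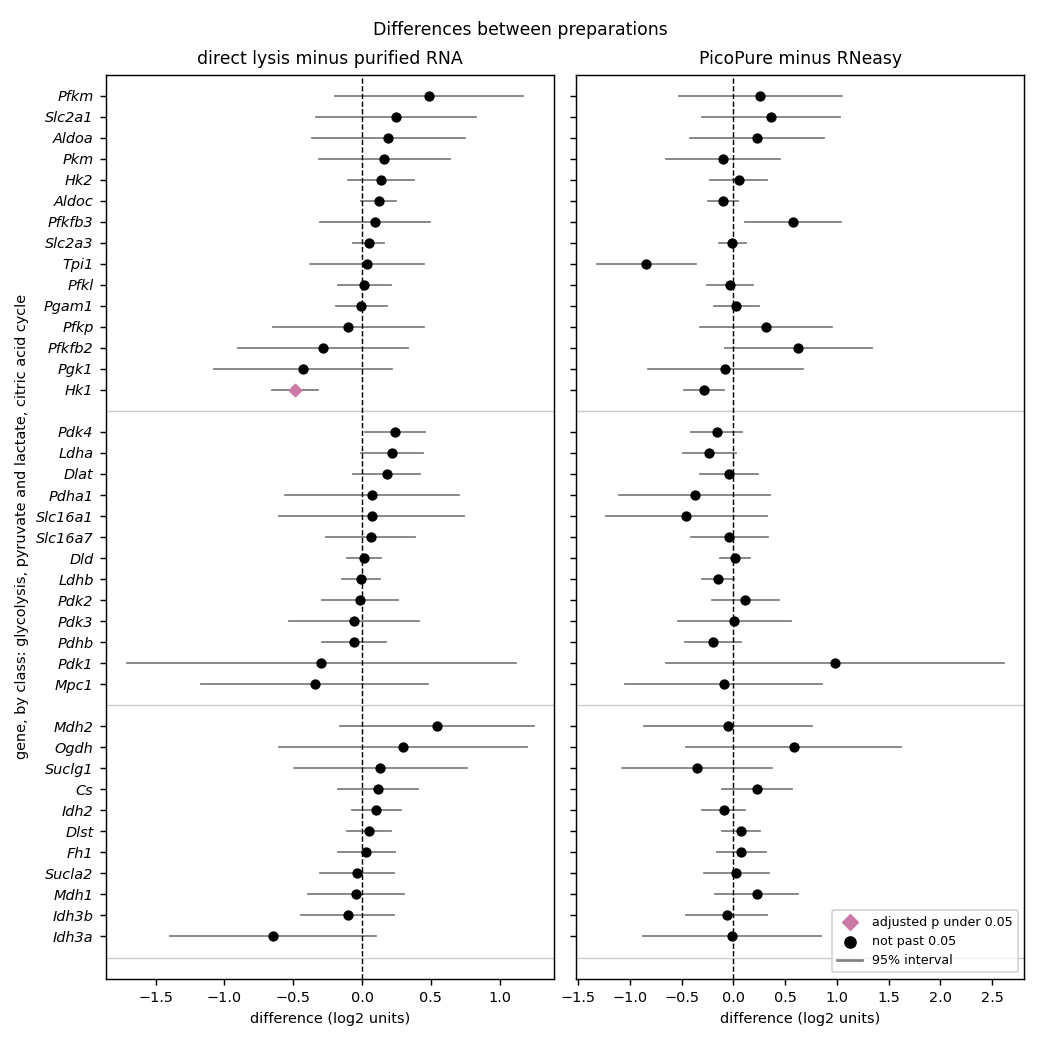
Points are differences in log2 units between direct lysis and purified RNA (left) and between PicoPure and RNeasy (right), with 95% intervals from the fit over all genes, grouped into glycolysis (top), pyruvate and lactate (middle) and citric acid cycle genes (bottom). The diamond marks the annotated Hk1 row at -0.49, and no other point passed the adjusted threshold of 0.05.

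Glycolysis was set against the other classes within each oocyte through each gene's deviation from its own mean over the 9 oocytes. The class median of the deviations in glycolysis was 0.01 to 0.08 with direct lysis, -0.01 to 0.02 with PicoPure and -0.05 to 0.02 with RNeasy. In the citric acid cycle it was -0.02 to 0.06 with direct lysis, 0.01 to 0.02 with PicoPure and -0.08 to 0.07 with RNeasy. In pyruvate and lactate genes it was -0.01 to 0.11 with direct lysis, -0.23 to -0.01 with PicoPure and -0.01 to 0.03 with RNeasy. The value of -0.23 belonged to PicoPure oocyte 3, and the other 8 oocytes stayed within -0.06 to 0.11. For all genes the medians lay between -0.04 and 0.02. These medians are descriptions and were not tested.

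**Figure D5:**
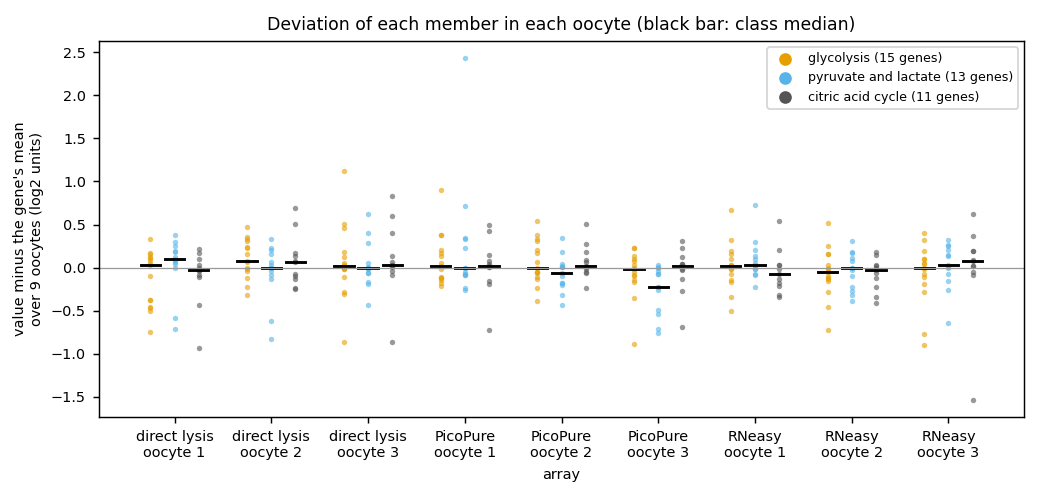
Each point is a gene's log2 value in 1 oocyte minus its mean over the 9 oocytes, in 3 colours for 15 glycolysis, 13 pyruvate and lactate and 11 citric acid cycle genes, with black bars at the class medians. Class medians stay near 0 in every oocyte except for pyruvate and lactate genes in PicoPure oocyte 3, at -0.23. The single points farthest from 0 include Pdk1 in PicoPure oocyte 1 and Ogdh in RNeasy oocyte 3.

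The spread of single genes between oocytes is given by their SD. The SD within preparations had a median of 0.28 for glycolysis genes, 0.18 for pyruvate and lactate genes and 0.23 for citric acid cycle genes. For all genes the median was 0.15. Among genes above background on all 9 arrays it was 0.28 for members, against 0.19 for all such genes. Over the members the SD ranged from 0.03 (Slc2a3, below background) to 0.99 (Pdk1). Of genes far above background, Dld and Ldhb had SDs of 0.05 and 0.06. Pdk1, Ogdh and Mpc1 had 0.99, 0.63 and 0.57. Ldhb and Slc2a3 each held equal values on the 3 arrays of 1 preparation.

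Other genes of these pathways were counted in the same fit. Of 80 further genes of glycolysis and gluconeogenesis, pyruvate use, the citric acid cycle and the pentose phosphate pathway, 74 had a row and 39 lay above background on all 9 arrays. By class these were 10 of 29 for glycolysis and gluconeogenesis, 9 of 18 for pyruvate and lactate and 13 of 17 for the citric acid cycle. In the pentose phosphate pathway they were 7 of 10. The 17 counted under the citric acid cycle include mitochondrial carriers and neighbouring enzymes such as Acly and Got1. Those not above background on every array were the carriers Slc25a11 and Slc25a12, on 4 and 8, Ogdhl on 1 and Sdhb on 8. Of these, Sdhb encodes a subunit of succinate dehydrogenase, an enzyme of the cycle. None of these further genes passed in any of the 3 tests (limma, 0 of 74). At an unadjusted p under 0.05 there were 11 between direct lysis and purified RNA, 6 between PicoPure and RNeasy and 10 over the 3 preparations, against 14.2%, 7.98% and 12.8% of all genes. As shares of the 74 genes these were 14.9%, 8.11% and 13.5%, near those of all genes. G6pdx had no row, and Gapdh stood on 25 rows that list several genes, so neither was named.

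Pdhx, the protein that holds E3 in the pyruvate dehydrogenase complex, had 10.64, 10.75 and 10.52 in direct lysis, 10.63, 10.52 and 10.44 with PicoPure and 10.42, 10.39 and 10.30 with RNeasy. Sdha, the flavoprotein of succinate dehydrogenase, had 10.54, 10.97 and 11.18 in direct lysis, 11.07, 11.01 and 10.97 with PicoPure and 10.56, 10.41 and 10.02 with RNeasy. For both genes each PicoPure oocyte lay above each RNeasy oocyte, without passing the test (limma, adjusted p = 0.689 for Pdhx and 0.381 for Sdha). Between direct lysis and purified RNA, Pdhx differed by 0.19 with overlapping groups (limma, unadjusted p = 0.0345, adjusted p = 0.310). Idh1, the cytosolic NADP-dependent isocitrate dehydrogenase, ranged from 10.20 to 10.96.

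The testis forms were read apart. Ldhc, the lactate dehydrogenase of male germ cells, ranged from 6.65 to 7.19 and lay above background on no array. Its difference between direct lysis and purified RNA was 0.31 (limma, unadjusted p = 0.0112, adjusted p = 0.207). Pdha2, the intronless testis form of the E1 alpha subunit, had 6.99, 8.55 and 8.32 in direct lysis, 7.93, 6.84 and 7.74 with PicoPure and 7.93, 8.52 and 9.63 with RNeasy. It lay above background in 7 of the 9 oocytes, with at least 2 in each preparation, and its groups overlapped between direct lysis and purified RNA.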

How the data were processed

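The deposited table held log2 expression values for 35556 rows on 9 arrays. Per the submitters' processing notes, GCOS, Affymetrix Expression Console and GCRMA were used, with no role or order given. That the scale is log2 was read from the values (2.41 to 13.90, array medians 7.12 to 7.24). Gene symbols came from the platform annotation and were updated by Entrez ID to RefSeq of GRCm38.p6. The 21789 rows with 1 symbol were kept, and each gene was represented by its brightest row on average, which left 19938 genes.

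Linear models with empirical Bayes moderation (limma 3.58.1 in R 4.3.3) had a mean for each of the 3 preparations, 3 oocytes each, with 6 residual degrees of freedom. They compared direct lysis with the mean of PicoPure and RNeasy, PicoPure with RNeasy, and all 3 by a moderated F. P-values were adjusted by Benjamini-Hochberg over all genes, with a threshold of 0.05, and the models were tested on simulated data. Arrays limit precision by their number.

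Named genes were the called members, the 4 members with the smallest p in each comparison, the 3 with the largest SD within preparations and a panel of transporters and enzymes. The members and lists were chosen with earlier results of these data known. The row with the most RefSeq transcripts was an alternative added after seeing the data. Other alternatives were normalization, centring, floor, filter, choice of row, variance model, replicate block, 1 kit alone and leaving out each array.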

Additional observations from a re-analysis of the deposited data

Results flagged for a closer look

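Among the 6 purified arrays, which combine PicoPure and RNeasy, 5 of 39 members (12.8%) had 1 oocyte whose gap to its neighbour passed the 95% limit of Dixon's test, against 17.7% of all genes. The limit is set so that about 1 in 20 groups of normal values from 1 population pass it. These 6 arrays pool both kits and some genes hold equal values, so that rate need not hold here.

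Pdk1, a pyruvate dehydrogenase kinase, stood at 9.57 in PicoPure oocyte 1, and the nearest purified oocyte at 6.91. Pdha1, the E1 alpha subunit of pyruvate dehydrogenase, stood at 10.06 in PicoPure oocyte 3, with the nearest at 10.77. Ogdh, the E1 subunit of oxoglutarate dehydrogenase, stood at 7.61 in RNeasy oocyte 3, with the nearest at 9.12. That oocyte also had the highest summed signal of cumulus and granulosa markers, at 3002, and the part of this in the Ogdh value was not tested. Idh2, mitochondrial isocitrate dehydrogenase, stood at 7.67 in PicoPure oocyte 1, with the nearest at 7.81. Slc2a3, a glucose transporter below background throughout, stood at 6.76 in PicoPure oocyte 3, with the nearest at 6.80.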

How the results depend on the processing

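Of 1658 single-gene comparisons with alternatives, over 44 genes, 1638 kept their side of the threshold with no counted change of sign. Differences within their SE could turn sign among these, as Pfkp did between direct lysis and purified RNA (-0.31 to 0.24). The Hk1 call was lost in 14, in 12 with its sign kept and in 2 with it turned. In all 8 changed sign, where a change of sign was counted only for differences that were called or exceeded their SE. With values raised to background, Hk2, Aldoc, Pdk4 and Ldhc stood at -0.050 between direct lysis and purified RNA. They lay below background on all 9 arrays, so this is the difference of the array backgrounds and says nothing of these genes. With the lowest-mean row, and with the row of most RefSeq transcripts, Hk1 stood at 0.15. Pfkfb2 was 0.028 against RNeasy alone and Sdha -0.12 against PicoPure alone. Members called between direct lysis and purified RNA fell to 0 (limma) under quantile normalization (5 at an unadjusted p under 0.05), the mean of rows (2), the lowest-mean row (2), the row of most RefSeq transcripts (2), the replicate block (1) and PicoPure alone (4), and were 0 to 1 leaving out an array. All genes called there were 201, against 25 with the block, 87 against RNeasy alone, 119 against PicoPure alone and 24 (without RNeasy oocyte 1) to 232 (without direct lysis oocyte 1) leaving out an array. Between PicoPure and RNeasy 12 genes were called, against 0 with trend and robust variance (limma, 1595 unadjusted), 0 with the block (1549 unadjusted) and 0 to 15 leaving out an array. No alternative called a member there. The F called 127 genes, against 81 under quantile normalization, 14 with the block and 4 to 96 leaving out an array. Its members called were 0 under quantile normalization (3 unadjusted), the mean of rows (3), the lowest-mean row (2), the row of most RefSeq transcripts (2), the block (3) and leaving out any array. Median differences between direct lysis and purified RNA were, for glycolysis, 0.10 under quantile normalization, -0.030 with values raised to background, 0.093 with the lowest-mean row and 0.029 to 0.099 leaving out an array. For pyruvate and lactate genes they were -0.046 to 0.11 leaving out an array, and for the citric acid cycle 0.15 under quantile normalization. Between PicoPure and RNeasy the glycolysis median was -0.078 with values raised to background, 0.13 with the filter, -0.0082 with the lowest-mean row and 0.0023 to 0.061 leaving out an array. It was -0.18 to -0.047 for pyruvate and lactate genes and -0.031 to 0.070 for the cycle leaving out an array. The causes were not tested. Whether replicate numbers pair the oocytes was not decided, since 9 same-number pairs are few. Their deviations correlated at -0.089 to 0.134, with a median of 0.034 against 0.012 for pairs of other numbers. Of 9 oocytes, 5 correlated best with their own number. Members above background on all 9 arrays were 22 to 32 over the alternatives. Of the 39 members, 10 lay below background on at least 1 array.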
